A study of Mus musculus with 12 samples.

Results

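The fibroblast growth factor (FGF) genes were examined in mouse urogenital sinus epithelium, the lining from which prostate buds and urethral epithelium grow. The members were the FGF ligands, the FGF receptors, the Sprouty genes and 8 partners and targets (Fgfrl1, Fgfbp1, Frs2, Spred1, Spred2, Dusp6, Etv4 and Etv5), chosen by their symbols, which gave 37 of the 20308 genes in the deposited table. Dnmt1cKO stands for 8 libraries from embryos in which a Cre recombinase driven by Shh, a gene expressed by this lining, removed Dnmt1, which encodes the maintenance DNA methyltransferase. Control stands for 4 libraries from wildtype embryos, and whether these carried Cre is not given in the labels. All embryos were C57BL/6J at embryonic day 15.5, the epithelium was freed from the stroma with trypsin, and each lysate pooled several embryos of a harvest. The study compared the mutant with the wildtype epithelium.

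FGF ligands are secreted proteins that bind receptor tyrosine kinases together with heparan sulfate. In many budding organs, among them the prostate, the stroma makes Fgf7 and Fgf10 and the epithelium answers through the IIIb splice form of Fgfr2. The docking protein Frs2 links the receptors to the Ras-MAPK cascade, whose output includes the transcription factors Etv4 and Etv5 and the inhibitors Dusp6, Spry and Spred, which dampen the same cascade. Expected counts per gene do not separate the IIIb and IIIc forms of a receptor.

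The Control libraries were uneven, which bears on every value that follows. The Dnmt1cKO libraries held 4007498 to 11970876 counts, and the Control libraries held 7577669, 2915169, 1613495 and 543570. Levels are given as CPM, the usual counts-per-million unit, with library totals scaled by TMM factors. Dnmt1 itself spanned 22.8 to 97.0 CPM over the Dnmt1cKO libraries, while Controls 1 to 3 held 164, 114 and 237 CPM. The library labelled Control 4 held a single Dnmt1 count (2.84 CPM), which goes against its label. This library had the fewest counts, and other genes were missing there too. Fgfr2, Spred1 and Akt1, at 62.57 CPM or more in Controls 1 to 3, had no count in it. The reason for its low Dnmt1 was not tested. Most of the 14 epithelial markers were lower in Control 3 than in Controls 1 and 2. These were Trp63 (2.26 CPM), Shh (3.77 CPM), Grhl2 (no count), Cdh1, Krt5, Krt15, Foxa1, Cldn4 and Esrp2. Only Epcam (782.5 CPM), Krt8 (856 CPM) and Krt18 (879 CPM) stood above their levels in Controls 1 and 2, and Cldn7 and Esrp1 lay between them. Control 3 also had the highest sum of 18 stromal markers. That sum was 360 to 6766 CPM in Dnmt1cKO and 5456, 5833, 11040 and 1487 CPM in Control 1, 2, 3 and the library labelled Control 4. Epithelial markers summed to 6283 to 11430 CPM in Dnmt1cKO and to 9433, 18120, 4042 and 34530 CPM in the same 4 Control libraries. Only 6 of the 37 FGF genes had a count in the library labelled Control 4 and 13 in Control 3, against 15 to 24 in the Dnmt1cKO libraries and 22 and 17 in Controls 1 and 2.

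Of the 37 members, 10 had no count in any library, and all of them were ligands (Fgf3, Fgf4, Fgf6, Fgf8, Fgf15, Fgf16, Fgf17, Fgf18, Fgf22 and Fgf23). A count of 0 allows a level of up to 0.219 to 0.856 CPM in a Dnmt1cKO library and up to 0.369 to 8.53 CPM in a Control library, with 3 counts as the limit. Fgf2, Fgf5, Fgf14, Fgf20 and Fgf21 did not pass the filter, which asks for enough counts in enough libraries. This left 22 members with a test. Fgf2 had 114 counts, but in only 3 libraries. With the quasi-likelihood test of edgeR and a Benjamini-Hochberg adjusted p below 0.05 as the threshold, 0 of the 22 were called higher and 0 lower in Dnmt1cKO. Among the 12761 genes tested, 2.59% were called, 1.03% as higher and 1.55% as lower. Before adjustment, Etv4 and Fgfr4 had a p below 0.05, both higher, and 0 members lower, where 17.7% of all genes had such a p, 8.19% as higher and 9.54% as lower. The share of 2 in 22 members is near the 8.19% for higher and below the 17.7% for either direction. The DESeq2 fit called Etv4 as higher and 0 members as lower, with no adjusted p for Fgf7, where it called 4.01% of the 12159 genes with an adjusted p as higher and 8.47% as lower. limma-voom called 0 members and 0.306% of all genes. No tested member had all Dnmt1cKO libraries above or below all Control libraries, a pattern shown by 3.08% of the genes tested. The median log2 fold change of the 22 members was 0.88, beside 0.22 for all genes tested. Fgfr4, Fgf12, Fgf9, Fgf7 and Spry4 had counts in at most 1 Control library and were tested on the strength of their Dnmt1cKO counts, and the median of the other 17 members, set apart after the data were examined, was 0.40. The median of the 22 was 0.20 with limma-voom, beside 0.23 for all genes, and 0.42 without Control 3 and the library labelled Control 4, beside 0.16.

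**Figure D1:**
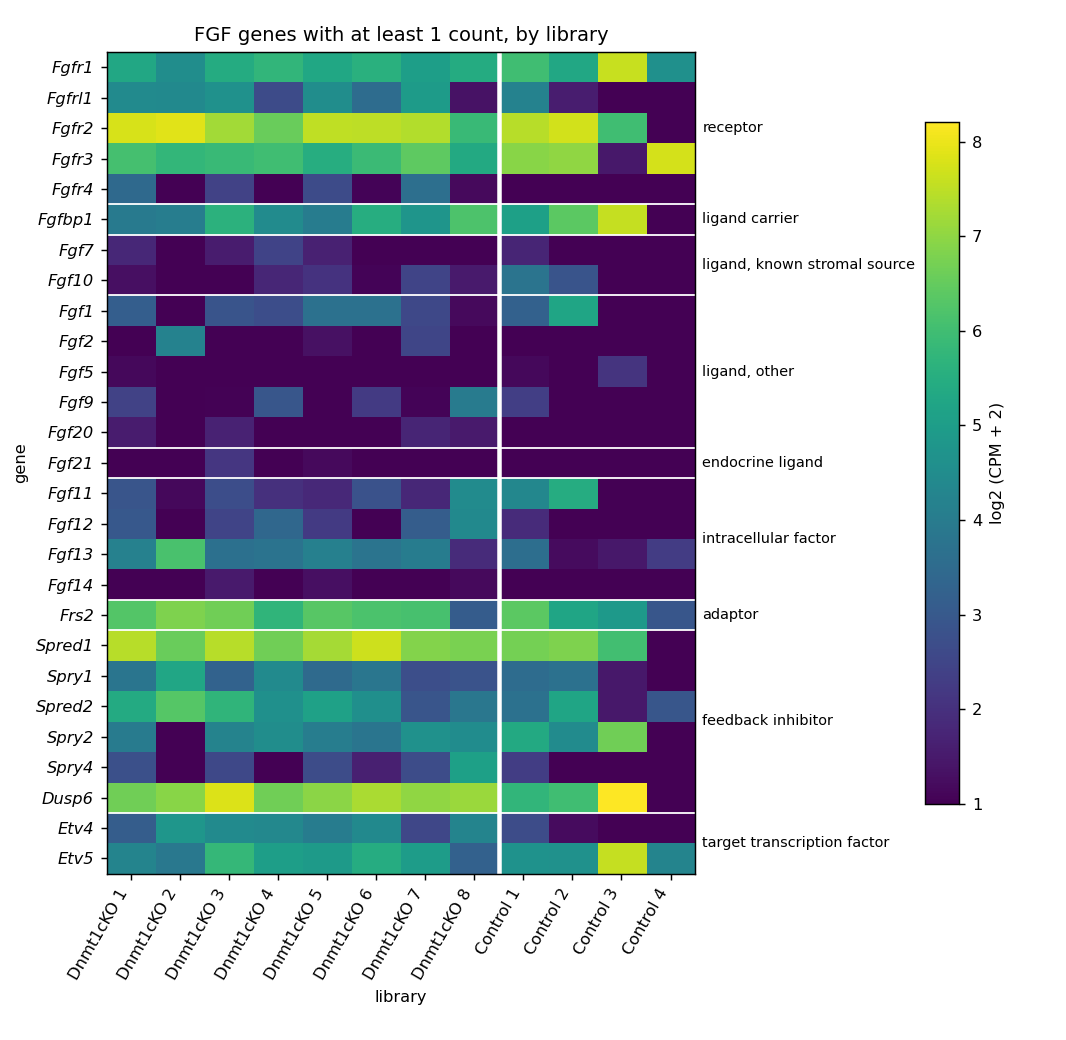
Level of each FGF gene with at least 1 count, as log2 (CPM + 2), in every library (columns, Dnmt1cKO left of Control), with genes grouped by role (rows). Dusp6 and Spred1 are bright in all Dnmt1cKO libraries and dark in the library labelled Control 4, while most ligands are dark in nearly every library.

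The receptors come first, with the DNA just before the start of the most abundant receptor gene, of the receptor gene without a count in Control, and of Dusp6. These 250 bases are shown because DNMT1 acts on the dinucleotide CG, which stands in capitals. The window of Fgfr2 holds far fewer CG pairs than those of Fgfr4 and Dusp6, which hold nearly the same number. The sequences are RefSeq's, build GRCm38.p6, written 5' to 3' along the strand of the gene.
Fgfr2 (chr7:130266809-130267058, minus strand): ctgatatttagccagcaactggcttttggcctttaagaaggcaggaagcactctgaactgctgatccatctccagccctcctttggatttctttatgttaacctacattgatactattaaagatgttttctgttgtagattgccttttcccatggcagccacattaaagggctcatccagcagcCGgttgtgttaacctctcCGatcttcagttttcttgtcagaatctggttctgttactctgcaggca
Fgfr4 (chr13:55152568-55152817, plus strand): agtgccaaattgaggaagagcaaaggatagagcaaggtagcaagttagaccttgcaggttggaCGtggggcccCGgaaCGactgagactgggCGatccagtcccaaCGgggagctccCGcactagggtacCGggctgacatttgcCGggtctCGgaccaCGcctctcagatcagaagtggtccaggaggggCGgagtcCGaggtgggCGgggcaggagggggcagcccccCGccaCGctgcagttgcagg
Dusp6 (chr10:99262981-99263230, plus strand): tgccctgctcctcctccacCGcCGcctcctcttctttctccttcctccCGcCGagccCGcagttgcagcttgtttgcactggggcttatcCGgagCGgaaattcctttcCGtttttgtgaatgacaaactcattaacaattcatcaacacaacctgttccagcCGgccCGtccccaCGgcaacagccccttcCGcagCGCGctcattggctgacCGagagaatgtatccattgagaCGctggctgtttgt
The window of Fgfr2 held 2 CG pairs, that of Fgfr4 15 and that of Dusp6 16. RefSeq gave 36 windows of this length for 28 of the 37 members. Fgf12 and Fgf13 had several, and some windows, such as those of Fgf9, Fgf11 and Fgf14, lay inside the span of the gene. Counted per window, the median was 18 CG pairs and the range 2 to 37, beside a median of 6 over 32851 windows of all genes. The letters CCGGAAGT, a strong form of the binding site of ETS factors such as Etv4 and Etv5, were searched on both strands. They stood in 2 of the 36 windows, those of Fgfrl1 and Frs2, and in 2.88% of all windows. DNA methylation was not measured here.

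Fgfr2, the epithelial receptor for Fgf7 and Fgf10, was the most abundant receptor per length of exon in every Dnmt1cKO library and in Controls 1 and 2. Fgfr2 (chromosome 7, 130162451 to 130266808) stood at 57.6 CPM at the lowest, 171 CPM at the median and 237 CPM at the highest in Dnmt1cKO. In Controls 1, 2 and 3 it stood at 172, 208 and 62.6 CPM, and the library labelled Control 4 had no count, where 0 allows up to 8.53 CPM. The Dnmt1cKO range thus took in the levels of Controls 1 to 3, and the library labelled Control 4 lay below it. Means were 159 ± 60.1 CPM in Dnmt1cKO (SD, n = 8) and 111 ± 96.2 CPM in Control (SD, n = 4). The log2 fold change was 0.50 ± 0.62 (SE, 95% interval -0.77 to 1.77, edgeR adjusted p = 0.727). Without Control 3 and the library labelled Control 4 it was -0.19 (edgeR adjusted p = 0.901), so its direction depended on these libraries.

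Fgfr3, a receptor that marks urothelium, ranged from 39.6 to 83.1 CPM in Dnmt1cKO with a median of 57.6 CPM. It stood at 119 and 128 CPM in Controls 1 and 2, at 0.754 CPM, a single count, in Control 3, and at 213 CPM in the library labelled Control 4. All Dnmt1cKO libraries therefore lay below Control 1, Control 2 and the library labelled Control 4, and above Control 3. Its log2 fold change was -0.99 ± 0.67 (SE, 95% interval -2.34 to 0.37, edgeR adjusted p = 0.475). It was -0.46 without the library labelled Control 4 (edgeR adjusted p = 0.802), -1.40 without Control 3 (edgeR adjusted p = 0.118) and -1.03 without Control 3 and the library labelled Control 4 (edgeR adjusted p = 0.263).

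Fgfr1, the receptor of mesenchymal as well as epithelial cells, ranged from 21.3 to 51.5 CPM in Dnmt1cKO, with a median of 39.4 CPM. It stood at 61.8, 37.8, 192 and 22.7 CPM in Controls 1, 2, 3 and the library labelled Control 4. Control 3, with the highest stromal marker sum, held by far its highest level. The log2 fold change was -1.04 ± 0.65 (SE, edgeR adjusted p = 0.423), and it was -0.11 without Control 3 (edgeR adjusted p = 0.959). In these bulk libraries fewer cells of a type cannot be told apart from less RNA per cell.

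The order of the receptors differed between the Control libraries. Per kilobase of exon, Fgfr2 stood at 11.3 to 46.3 CPM in the Dnmt1cKO libraries, above Fgfr3 at 9.01 to 18.9 CPM and Fgfr1 at 4.09 to 9.87 CPM in all 8. Fgfr2 and Fgfr3 stood at 33.5 and 27.1 CPM per kilobase in Control 1 and at 40.7 and 29.1 in Control 2. In Control 3 the highest receptor was Fgfr1, at 36.9 CPM per kilobase against 12.2 for Fgfr2 and 0.171 for Fgfr3. In the library labelled Control 4 it was Fgfr3, at 48.5 CPM per kilobase, with Fgfr1 at 4.36 and no count of Fgfr2. Control 3 was also the library with the lowest epithelial and the highest stromal marker sums. A fit with the stromal marker level as a covariate gave log2 fold changes of -0.56 for Fgfr1, 0.86 for Fgfr2 and -1.23 for Fgfr3. Their edgeR adjusted p were 0.816, 0.678 and 0.414. That fit concerns the genotype term, and the part of cell composition in these levels was not tested.

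**Figure D2:**
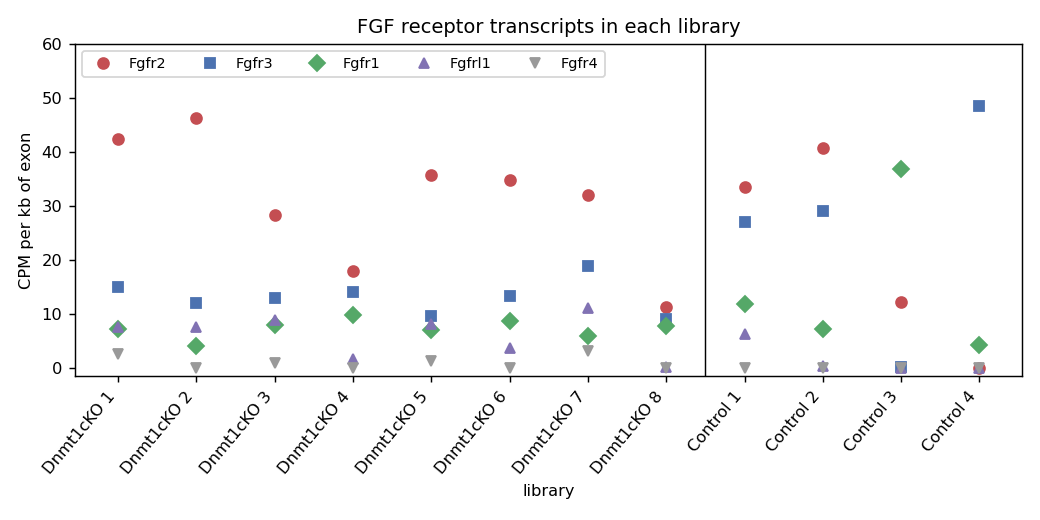
Level of 5 receptor genes per library in CPM per kilobase of exon, with 1 point per gene and library and a line between Dnmt1cKO (left) and Control (right). Fgfr2 is the highest point in all 8 Dnmt1cKO libraries and in Controls 1 and 2, Fgfr1 in Control 3, and Fgfr3 in the library labelled Control 4.

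Fgfr4, a receptor best known from liver, was found in 6 of the 8 Dnmt1cKO libraries and in no Control library. Its levels in Dnmt1cKO 1 to 8 were 8.97, 0, 3.31, 0, 4.21, 0.0999, 10.3 and 0.285 CPM, so 4 libraries carried nearly all of its 315 counts. The Dnmt1cKO mean of 3.40 ± 4.20 CPM (SD, n = 8) was 14.5 times a floor of 3 counts over the whole Control group. In the single Control libraries, 0 counts allow up to 0.369, 1.01, 2.26 and 8.53 CPM. Dnmt1cKO 2, 4, 6 and 8 lay below all of these limits. The ratio to the pooled floor covers counting error only. With the deepest Control library left out of the floor, an alternative added after the data were examined, the ratio was 5.26. The test did not call it (edgeR adjusted p = 0.162, and 0.123 to 0.700 over the alternatives in which it was tested). Without Dnmt1cKO 1, 3, 5 or 7, and with the title number as a block, Fgfr4 fell below the count filter and had no test. Fgfrl1, a receptor-like protein without a kinase, had a median of 19.7 CPM in Dnmt1cKO (range 0.571 to 29.0 CPM). In Control it stood at 16.2, 1.01, 0 and 0 CPM, and the groups overlapped (log2 fold change 1.72 ± 1.23 SE, edgeR adjusted p = 0.499). Without Control 1 it was 4.92 (edgeR adjusted p = 0.0566).

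Transcripts of the stromal ligands were scarce. Fgf10, which drives budding of the prostate, had a lowest level of 0, a median of 0.647 and a highest level of 3.54 CPM in Dnmt1cKO, against 11.7, 5.40, 0 and 0 CPM in Control. Controls 1 and 2 lay above every Dnmt1cKO library, and both other Controls had no count, where 0 allows up to 2.26 and 8.53 CPM. The log2 fold change was -2.06 ± 1.48 (SE, 95% interval -5.06 to 0.95, edgeR adjusted p = 0.503), -0.92 without Control 1 (edgeR adjusted p = 0.750) and -2.92 without Control 3 and the library labelled Control 4 (edgeR adjusted p = 0.596). Control 1 held 95 of the 111 Fgf10 counts in Control. Fgf7, known as keratinocyte growth factor, had a lowest level of 0, a median of 0.463 and a highest level of 3.51 CPM in Dnmt1cKO, against 1.35, 0, 0 and 0 CPM in Control. With 90 counts in 5 libraries it allowed no statement on a difference (edgeR adjusted p = 0.836).

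Set beside the stromal marker sum, high and low ligand levels both occurred at high sums. Controls 1 and 2, with sums of 5456 and 5833 CPM, held the highest Fgf10 levels, and Dnmt1cKO 4, at 4507 CPM, held the highest Fgf7 level. Dnmt1cKO 2, with the highest stromal sum of the mutants (6766 CPM), had no count of Fgf7 or Fgf10, where 0 allows up to 0.673 CPM. Dnmt1cKO 7, at 593 CPM of stromal markers, held the highest Fgf10 level of the mutants. Control 3, at 11040 CPM, had no count of either, where 0 allows up to 2.26 CPM. Of the 18 stromal markers, 15 to 18 had a count in every library. A fit with the stromal marker level as a covariate gave log2 fold changes of -1.95 for Fgf10 and 2.11 for Fgf7 (edgeR adjusted p = 0.746 and 0.713). That fit concerns the genotype term, and the part of stromal cells in the ligand levels was not tested. The median log2 fold change of the 17 stromal markers tested was -1.39, and 0 were called in either direction (edgeR).

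**Figure D3:**
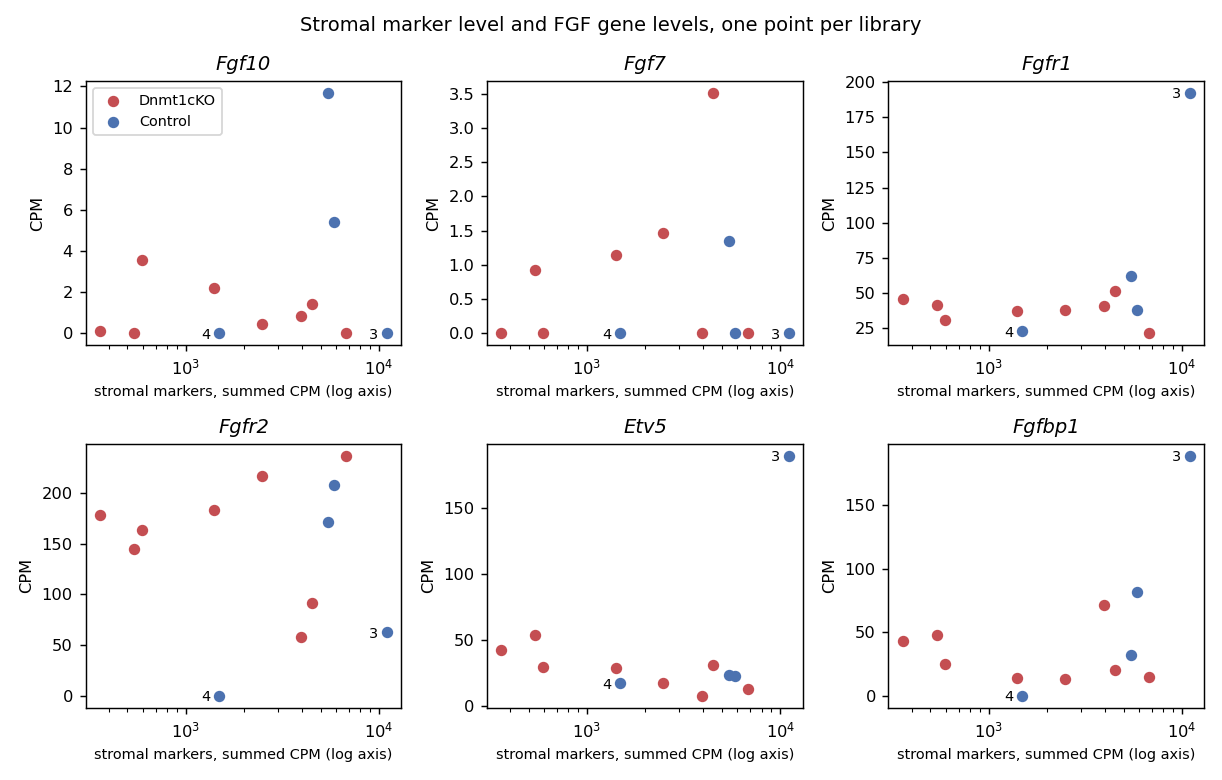
Level of 6 FGF genes in CPM (vertical axes) against the summed CPM of 18 stromal markers (horizontal log axis), with 1 point per library in red for Dnmt1cKO and blue for Control, and the numbers 3 and 4 at those Controls. Control 3 stands alone at the top for Fgfr1, Etv5 and Fgfbp1, and Fgf10 and Fgf7 show no count there.

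Other secreted ligands were found in part of the libraries. Fgf1, which binds all FGF receptors, ranged from 0 to 10.99 CPM in Dnmt1cKO with a median of 4.93 CPM, and from 0 to 36.1 CPM in Control, with no count in Control 3 and the library labelled Control 4 (edgeR adjusted p = 0.712). Fgf9, an epithelial or mesothelial ligand in other organs, reached 14.0 CPM in Dnmt1cKO 8 and 3.07 CPM in Control 1, and had no count in the other 3 Control libraries (edgeR adjusted p = 0.663). Fgf2, Fgf20, Fgf21 and Fgf14 had no count in Control and were not tested. Fgf2 had 114 counts in Dnmt1cKO, of which Dnmt1cKO 2 held 73, and Fgf20 had 45 counts over 4 libraries. Fgf21, an endocrine ligand known from liver, had 31 of its 34 counts in Dnmt1cKO 3. Fgf5 had 3 counts in Dnmt1cKO and 5 in Control.

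Fgfbp1, a carrier that releases FGFs from the matrix, had median levels of 10.04 CPM per kilobase in Dnmt1cKO and 25.1 in Control, where the tested secreted ligands had medians of at most 0.951 and 0.723. In CPM it ranged from 13.4 to 71.0 CPM in Dnmt1cKO, with a median of 22.7 CPM, and stood at 32.2, 81.6, 188.5 and 0 CPM in Control. Controls 2 and 3 lay above every Dnmt1cKO library and the library labelled Control 4 below. On the log2 scale the fold change was -1.29 ± 0.78 (SE, 95% interval -2.87 to 0.29, edgeR adjusted p = 0.408), and -0.33 without Control 3 (edgeR adjusted p = 0.896).

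The Fgf11 to Fgf14 genes encode intracellular proteins that bind sodium channels and are not secreted as ligands. Fgf13 had a count in every library and ranged from 1.71 to 68.5 CPM in Dnmt1cKO, against 10.2, 0.337, 0.754 and 2.84 CPM in Control. Dnmt1cKO 8 lay within the Control range and the other 7 above it (log2 fold change 2.32 ± 1.19 SE, edgeR adjusted p = 0.310). Fgf12 had counts in 6 of 8 Dnmt1cKO libraries, up to 19.4 CPM, and 14 counts in Control 1 alone (log2 fold change 3.27 ± 1.79 SE, edgeR adjusted p = 0.351). Fgf11 ranged from 0.225 to 20.2 CPM in Dnmt1cKO and stood at 18.3, 42.1, 0 and 0 CPM in Control (log2 fold change -1.63, edgeR adjusted p = 0.519). Single Controls weighed on all 3 values: without Control 1, Fgf13 was 4.34 (edgeR adjusted p = 0.0705) and the fitted value of Fgf12, then set against no count, was 8.41 (edgeR adjusted p = 0.116), and without Control 2 Fgf11 was -0.40.

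Etv4, an ETS transcription factor induced by FGF signalling, had the lowest adjusted p of the members. Its levels in Dnmt1cKO 1 to 8 were 6.79, 25.8, 19.9, 18.8, 14.2, 19.3, 3.75 and 17.1 CPM, against 4.43, 0.337, 0 and 0 CPM in Control. Dnmt1cKO 7 lay below Control 1, and the other 7 Dnmt1cKO libraries lay above the measured levels of all Controls. In the library labelled Control 4, 0 allows up to 8.53 CPM, which is above Dnmt1cKO 1. Means were 15.7 ± 7.26 CPM in Dnmt1cKO (SD, n = 8) and 1.19 ± 2.16 CPM in Control (SD, n = 4). The log2 fold change was 3.37 ± 1.29 (SE, 95% interval 0.74 to 5.99), and it was not called (edgeR adjusted p = 0.158, and 0.0131 to 0.944 over the alternatives). DESeq2 called it (adjusted p = 0.0131), as did edgeR without Control 1 (log2 fold change 6.25, adjusted p = 0.023), while without Control 3 and the library labelled Control 4 the adjusted p was 0.492 in edgeR.

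Its relative Etv5 lay the other way in the fit of all libraries. Etv5 ranged from 7.42 to 54.1 CPM in Dnmt1cKO, with a median of 29.0 CPM, and stood at 23.5, 22.9, 190 and 17.1 CPM in Control. Control 3 alone lay outside the Dnmt1cKO range. Its log2 fold change was -1.19 ± 0.75 (SE, edgeR adjusted p = 0.436) with all libraries and 0.38 without Control 3 (edgeR adjusted p = 0.869).

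Dusp6, a phosphatase that removes the activating phosphates from ERK, was the member with the highest level per length in Dnmt1cKO (median 44.9 CPM per kilobase). Its levels in Dnmt1cKO 1 to 8 were 98.3, 119.9, 227, 98.2, 123, 155, 128 and 139 CPM, against 52.1, 62.0 and 294 CPM in Controls 1 to 3. The library labelled Control 4 had no count. All Dnmt1cKO libraries lay above Controls 1 and 2 and below Control 3. Its log2 fold change was 0.40 ± 0.65 (SE, 95% interval -0.91 to 1.71, edgeR adjusted p = 0.80). It was 0.098 without the library labelled Control 4 (edgeR adjusted p = 0.951), 0.18 without Control 1 (edgeR adjusted p = 0.894), 1.76 without Control 3 (edgeR adjusted p = 0.154) and 1.32 without Control 3 and the library labelled Control 4 (edgeR adjusted p = 0.170).

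The Sprouty genes encode inhibitors that act between receptor and Ras. Spry2 ranged from 0 CPM (Dnmt1cKO 2) to 23.1 CPM in Dnmt1cKO, with a median of 15.7 CPM, and stood at 39.6, 20.2, 98.8 and 0 CPM in Control (log2 fold change -1.39 ± 0.95 SE, edgeR adjusted p = 0.480). Spry1 ranged from 4.69 to 36.8 CPM in Dnmt1cKO, with a median of 10.6 CPM, and stood at 9.71, 10.8, 0.754 and 0 CPM in Control (log2 fold change 1.23 ± 1.13 SE, edgeR adjusted p = 0.614). Spry4 reached 31.9 CPM in Dnmt1cKO 8, stood at 0 to 4.74 CPM in the other mutants (median of all 8 libraries 4.12 CPM), and at 2.95, 0, 0 and 0 CPM in Control (edgeR adjusted p = 0.448). The groups overlapped for each of the 3 genes.

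The Spred proteins recruit neurofibromin to restrain Ras. Spred1 ranged from 93.2 to 199 CPM in Dnmt1cKO, with a median of 133 CPM, and stood at 101, 112, 63.3 and 0 CPM in Control (log2 fold change 0.97 ± 0.63 SE, 95% interval -0.30 to 2.24, edgeR adjusted p = 0.447). Spred2 ranged from 5.42 to 77.9 CPM in Dnmt1cKO and stood at 10.8, 35.7, 0.754 and 5.69 CPM in Control (log2 fold change 1.27 ± 0.94 SE, edgeR adjusted p = 0.517). Frs2, the docking protein, ranged from 6.56 CPM (Dnmt1cKO 8) to 110 CPM in Dnmt1cKO and stood at 82.9, 35.7, 27.1 and 5.69 CPM in Control (log2 fold change 0.84 ± 0.72 SE, edgeR adjusted p = 0.584).

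**Figure D4:**
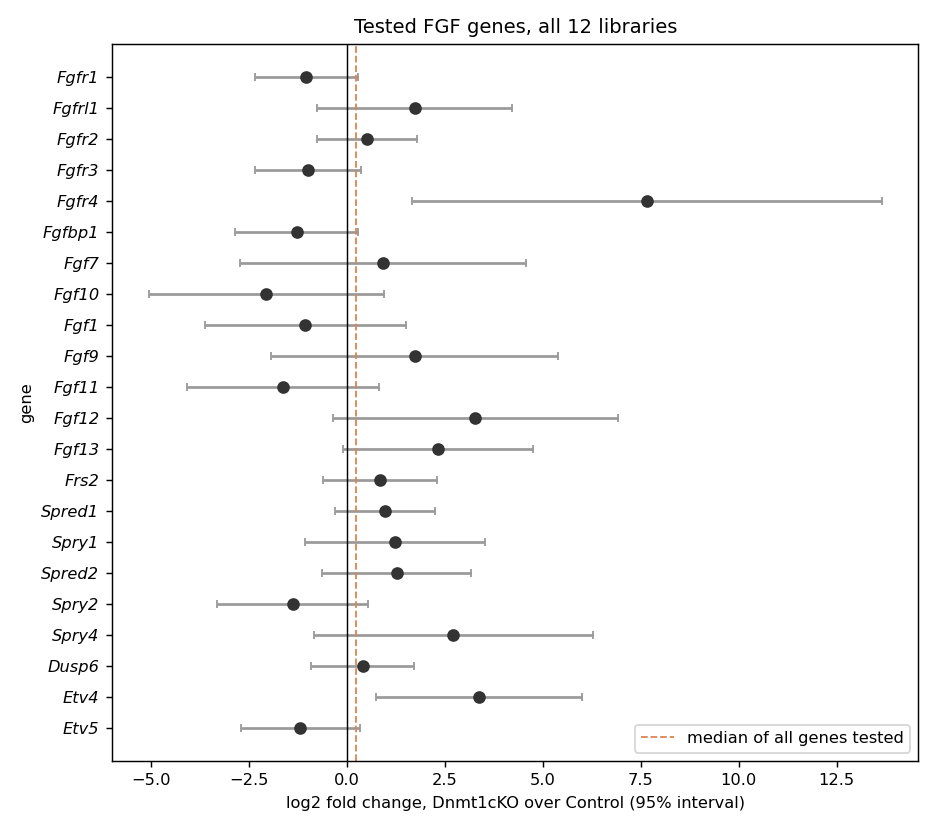
Log2 fold change of Dnmt1cKO over Control (points) with 95% intervals (bars) for the 22 tested FGF genes in the edgeR fit of all 12 libraries, with the median of all genes tested as a dashed line. The intervals of Etv4 and Fgfr4 lie above 0, which restates their unadjusted p below 0.05, and neither gene passed the adjustment over all genes. The fitted value of Fgfr4 depends on the prior count because Control had no count.

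Without Control 3 and the library labelled Control 4, 1 of the 22 members lay wholly above Controls 1 and 2 in Dnmt1cKO (Dusp6) and 2 lay wholly below (Fgf10 and Fgfr3), a comparison chosen after the data were examined. The same pattern was shown by 4.63% of the genes tested for above and by 4.73% for below. With these libraries left out, edgeR called 0 of 24 members tested in either direction and 0.336% of all genes. Before adjustment 2 higher and 2 lower members had a p below 0.05, beside 6.96% of all genes as higher and 2.22% as lower. Sample descriptions carry a code, b and a number, shared by both groups for the numbers 4 to 7. Within these codes, Dnmt1cKO minus Control on the log2 (CPM + 2) scale was 1.77, 3.15, 3.02 and 2.73 for Etv4. It was 2.08, 0.65, -1.25 and 6.15 for Dusp6 and -0.24, -1.16, 1.52 and 5.92 for Fgfr2. All genes tested had median differences of -0.03, 0.18, 1.01 and 1.83 in the same codes, and the Controls of codes 6 and 7 are Control 3 and the library labelled Control 4. In all 4 codes 5 of 22 members were higher (Etv4, Fgf12, Fgf13, Fgfrl1 and Frs2), beside 18.2% of all genes tested.

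**Figure D5:**
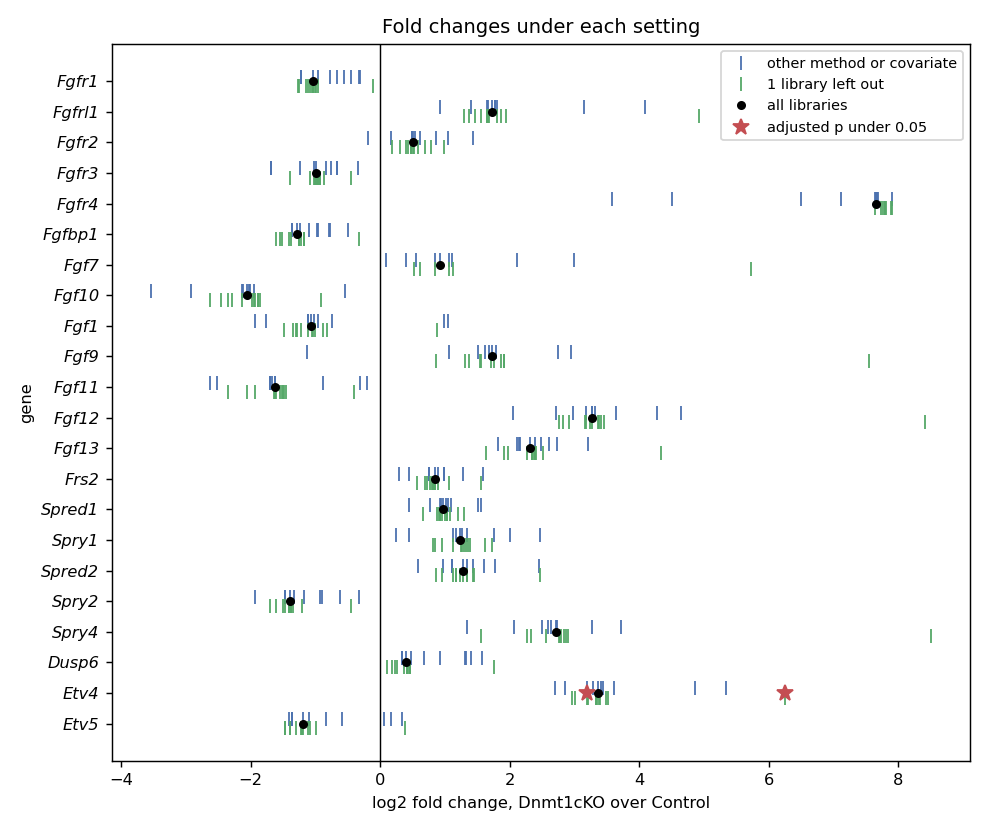
Log2 fold change of Dnmt1cKO over Control for each tested FGF gene with all libraries (black points), with 1 library left out (green ticks) and with another method, library set or covariate (blue ticks). Red stars mark an adjusted p under 0.05, which Etv4 alone reached, with DESeq2 and without Control 1.

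The wider pathway was followed through 65 other genes, from heparan sulfate enzymes to the Ras-MAPK and PI3K arms, of which 64 were in the table and 60 were tested. With edgeR, 0 were called in either direction, beside 2.59% of all genes. Before adjustment 6 higher and 4 lower genes had a p below 0.05, close to the 17.7% of all genes. The DESeq2 fit called 1 as higher and 3 as lower, beside 4.01% and 8.47% of all genes, and limma-voom called 0. Without Control 1, edgeR called 4 as higher and 1 as lower, beside 4.99% and 3.75% of all genes. The median log2 fold change of the list was 0.14. The immediate early gene Ier3 had counts in 6 of 8 Dnmt1cKO libraries, up to 6.93 CPM, and none in Control (edgeR adjusted p = 0.141). Crkl, an adaptor, averaged 43.0 ± 23.9 CPM in Dnmt1cKO (SD, n = 8) and 7.82 ± 11.9 CPM in Control (SD, n = 4), with a log2 fold change of 2.35 ± 0.97 (SE, edgeR adjusted p = 0.186). Ier2, an immediate early gene, averaged 87.2 ± 30.1 CPM in Dnmt1cKO and 300 ± 406 CPM in Control (SD, n = 8 and 4), with a log2 fold change of -1.76 ± 0.54 (SE, edgeR adjusted p = 0.0725, called without Control 1, 2 or 3). Its highest level, 904 CPM, lay in the library labelled Control 4. Nras averaged 270 ± 42.6 CPM in Dnmt1cKO and 543 ± 468 CPM in Control (SD, n = 8 and 4), with 1237 CPM in that same library (edgeR adjusted p = 0.174).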

How the data were processed

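The table deposited by the authors holds RSEM expected counts, estimated counts per gene symbol. RSEM 1.2.3, Bowtie 0.12.9 and bcl2fastq 2.17.1.14 were used with build mm10, per the submitters' processing notes. The annotation and the strand setting were not given in the sources used here. Counts were rounded to whole numbers and tested in R 4.3.3 with edgeR 4.0.16 (quasi-likelihood, robust dispersions, TMM factors), with 1 term for genotype, after filterByExpr (minimum count 10, minimum total 15). Benjamini-Hochberg adjustment ran over 12761 genes, with 0.05 as the threshold. Alternatives used DESeq2 1.42.0, limma 3.58.1, other scaling, filters, library sets and covariates. The fit was tried on simulated counts with less spread between libraries than these data, whose square root of the common dispersion was 0.984. That trial therefore gives no power or error rate for these libraries. Lengths were the summed exons of GENCODE M21 protein-coding transcripts, and positions were RefSeq's (GRCm38.p6). No molecular identifiers are mentioned, so limits from counts cover counting error only. Nothing in the labels states that every library had its own pool of embryos, so p-values measure the spread between libraries, which may be technical. No 2 libraries of a group matched within counting noise (chi-square per degree of freedom at least 27.0).

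The members and lists were chosen with earlier results of these data known. Values in every library were given for 12 members fixed by name (Fgfr1 to Fgfr4, Fgf7, Fgf10, Spry1, Spry2, Spry4, Dusp6, Etv4 and Etv5, as lowest, median and highest for Dnmt1cKO where 8 values were not listed) and would have been for called members and members without overlap, of which there were none. From the wider list the 2 genes with the smallest p in each direction were named. Marker lists for endothelial, immune, erythroid, neural and duct cells had 0, 0, 0, 1 and 1 genes called lower and 0 higher (edgeR). Their summed levels were 9.56 to 89.8, 7.71 to 55.0, 10.4 to 1497, 4.27 to 247 and 68.2 to 189 CPM in Dnmt1cKO, and 14.2 to 310, 0 to 222, 429 to 5798, 79.9 to 448 and 204 to 580 CPM in Control.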

Additional observations from a re-analysis of the deposited data

Results flagged for a closer look

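In 11 of the 43 sets of values examined (22 members in 2 groups, without Fgfr4 in Control, which had no count), 1 library stood far from the others of its group by the gap on the log2 (CPM + 2) scale. Chance flags about 1 set in 20, and the libraries are not interchangeable. In Control 1, Etv4 stood at 4.43 CPM, Fgf12 at 1.72, Fgf7 at 1.35, Fgf9 at 3.07 and Spry4 at 2.95 CPM, where the other Controls had at most 0.337 CPM of Etv4 and no count of the other 4 genes. With no count in the other 3, the gap equals the whole range by construction. There 0 allows up to 1.01, 2.26 and 8.53 CPM in Control 2, Control 3 and the library labelled Control 4. These 4 genes are therefore not shown to stand apart in Control 1. Nor is Etv4, whose 4.43 CPM lies below the 8.53 CPM that 0 allows in the library labelled Control 4. In Control 3, Etv5 stood at 190 CPM, against 17.1 to 23.5 CPM in the other Controls, and Fgfr3 at 0.754 CPM, against 119 to 213 CPM. In the library labelled Control 4, Spred1 stood at 0 CPM, against 63.3 to 112 CPM. In Dnmt1cKO 8, Frs2 stood at 6.56 CPM, against 50.8 to 109.8 CPM in the other mutants, and Spry4 at 31.9 CPM, against 0 to 4.74 CPM. In Dnmt1cKO 2, Spry2 stood at 0 CPM, against 11.9 to 23.1 CPM.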

How the results depend on the processing

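Of 469 recomputed log2 fold changes of members, 458 kept their direction and their side of the threshold, 2 passed it (Etv4, above) and 9 changed direction. Etv5 was 0.16 with limma-voom, 0.34 without Control 3 and Control 4 and 0.055 with the description code as a block. Etv5 ranged from -1.47 to 0.38 with 1 library left out. Fgf1 was 1.04 and 0.99 with the description code and the title number as a block and ranged from -1.48 to 0.88 with 1 library left out. Fgf9 was -1.13 with limma-voom, and Fgfr2 was -0.19 without Control 3 and Control 4. The causes were not tested. Member calls were 0 higher and 0 lower in all settings except DESeq2 (1 higher) and without Control 1 (1 higher), so they ranged from 0 to 1 higher and 0 lower with 1 library left out. Without Control 3 and Control 4, 1 member lay wholly above and 2 wholly below the remaining Controls, against 0 and 0 with all libraries.

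Of the wider list, RLE factors gave 3 lower genes (Flrt3, Nras and Ier2), DESeq2 1 higher (Hs6st2) and the same 3 lower, and the stromal covariate 1 lower (Ier2), named after their values were seen. With 1 library left out the list had 0 to 4 higher and 0 to 1 lower genes. Among all genes, 132 were higher and 198 lower. RLE factors gave 170 and 726, library totals alone 113 and 47, DESeq2 487 and 1030, limma-voom 8 and 31, and Control 3 and Control 4 left out 45 and 2. With 1 library left out the counts were 60 to 657 higher and 36 to 494 lower. All genes tested had a median log2 fold change of 0.22, which became 0.072 under RLE factors and 0.38 under library totals.

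Libraries with the same replicate number showed little correlation. Their deviations from the group means correlated at -0.046 to 0.068 for the description codes and -0.055 to 0.061 for the title numbers. Libraries with different numbers were not correlated as a baseline, so this check cannot decide whether the numbers pair the libraries. With the code as a replicate block 135 genes were higher and 72 lower, and with the title number as a block over 8 libraries 21 and 29, with 0 members called in both. At the depth of the library labelled Control 4, 0 counts allow a level of up to 8.53 CPM.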
